A study of Mus musculus with 16 samples.

Results

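The hair keratins and keratin-associated proteins are the structural proteins of the hair shaft and of the sheaths that surround it in the follicle. They were taken here as every gene whose single symbol in the platform annotation starts with Krtap, or is a keratin among Krt25 to Krt28, Krt31 to Krt36, Krt71 to Krt75 or Krt81 to Krt86. The rule found 58 genes, 20 keratins and 38 Krtap genes, among 18193 genes on the array, and a gene with several probesets was represented by the brightest on average. The rule takes genes by symbol, not by how they moved, but it was chosen with earlier results of these data known. Of the symbols that the rule would take, Krt74 and Krt85 had no probeset of their own and were not analysed here.

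Hair keratins pair as heterodimers, a type I (acidic) with a type II (basic) chain, and form the filaments of the hair cortex and cuticle. Keratin-associated proteins fill the space between those filaments and are crosslinked to them through disulfide bonds. The inner root sheath, which moulds the growing shaft, has keratins of its own, and the companion layer between inner and outer root sheath carries Krt75. Shaft and inner root sheath are built during the growth phase of the hair cycle, and the resting follicle builds neither.

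All samples were of the FVB background, and RNA of each was hybridised to 1 Affymetrix MOE430 2.0 array. There were 4 samples of control skin, for which the labels give no transgene, 7 p53 tumors and 5 pRbp53 tumors. Both kinds of tumor were squamous cell carcinomas of the skin from mice in which the K14 promoter drove Cre in stratified epithelia. Cre deleted p53 in the first kind, and p53 together with pRb in the second. The p53 tumors comprised 3 poorly differentiated, 1 undifferentiated, 1 spindle cell and 2 mixed carcinomas, and the pRbp53 tumors 4 spindle cell and 1 mixed. Ages and hair cycle stage are not given in the labels. Values are log2 signals, so a difference of 1 is a doubling of signal. Levels of different probesets cannot be set against each other as amounts of RNA.

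The median log2 signal per array lay between 5.63 and 5.76. As a sign of RNA quality, the actin signal near the 3' end exceeded that near the 5' end by 1.33 for control skin 3 and 1.67 for p53 tumor 7, and by 0.21 to 0.68 for the other arrays. Control skin also carried skeletal muscle and fat, with means of the 12 muscle genes between 13.18 and 13.40, against 4.45 to 8.77 in the tumors. Csn2, a milk casein chosen after its values were seen, was at 9.83 in control skin 3 and at 11.65, 10.80, 8.75 and 13.67 in p53 tumors 2, 3, 4 and 5, against 3.10 to 4.47 elsewhere. Whether each sample is a different animal is not stated, and p-values therefore speak to variation among these samples, which may be technical. In whole tissue, fewer cells of a type and less RNA per cell cannot be told apart.

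The members have in common a promoter letter pattern that the rule did not use. The letters TATAAA, the core of a TATA box, stood on either strand within the 250 bases before and 50 bases after the transcription start in 41 of the 51 members with a promoter in the RefSeq table (80.39%), against 4234 of all 27025 genes (15.67%). On the sense strand, with the first letter 25 to 35 bases before the start, they stood in 26 of 51 members (50.98%) against 572 of 27025 genes (2.12%). This held for 7 of 15 keratins (46.67%) and 19 of 36 Krtap genes (52.78%). CTTTGAA, a core motif of the LEF/TCF factors, was found on either strand in 11 of 51 members (21.57%) and in 1602 of all genes (5.93%). These are matches of letters and nothing more. The 120 bases before the start are shown for the 5 members with the highest values over control skin in single tumors, chosen after their values were seen (Krt28, Krt73, Krtap1-5, Krtap4-6 and Krtap17-1) and for Krt75, which differed most between tumors and control skin. Capitals mark TATAAA, and its reverse complement TTTATA where the 2 overlap in Krtap1-5.
Krt28: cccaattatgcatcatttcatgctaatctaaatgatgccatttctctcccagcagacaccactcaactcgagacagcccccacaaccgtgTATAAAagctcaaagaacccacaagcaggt
Krt73: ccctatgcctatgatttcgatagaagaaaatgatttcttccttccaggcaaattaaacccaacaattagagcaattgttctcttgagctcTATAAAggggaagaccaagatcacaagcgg
Krtap1-5: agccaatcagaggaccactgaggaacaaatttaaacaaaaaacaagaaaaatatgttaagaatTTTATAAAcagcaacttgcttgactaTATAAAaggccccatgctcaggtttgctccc
Krtap4-6: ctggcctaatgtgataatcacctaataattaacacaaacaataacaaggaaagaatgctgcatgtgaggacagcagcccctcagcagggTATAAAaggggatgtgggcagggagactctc
Krtap17-1: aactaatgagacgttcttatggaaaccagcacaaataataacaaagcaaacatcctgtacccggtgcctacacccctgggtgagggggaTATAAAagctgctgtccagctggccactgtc
Krt75: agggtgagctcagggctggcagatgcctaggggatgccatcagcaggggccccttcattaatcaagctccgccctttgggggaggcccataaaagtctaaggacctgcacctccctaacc
All sequences are RefSeq's on GRCm38.p6, minus strand, at chr11:99374904-99375023 (Krt28), chr15:101802361-101802480 (Krt73), chr11:99581017-99581136 (Krtap1-5), chr11:99665961-99666080 (Krtap4-6), chr11:99993995-99994114 (Krtap17-1) and chr15:101573905-101574024 (Krt75). The nearest sense TATAAA began 30 bases before the start in Krt28 and Krt73 and 31 bases before it in the 3 Krtap genes, and Krt75 held neither motif in its 120 bases.

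Across the array set, most of these genes gave a low and nearly constant signal. The median of the 58 members lay between 3.75 and 4.05 on every array, below the array medians. Over all 16 arrays 41 members, 32 of them Krtap genes, varied by less than 1, and over the 4 control skin arrays all 58 did. Among the 12 tumors 9 members varied by more than 2. A log2 signal of 8 was reached on at least 1 array by Krt73, Krt75 and Krtap17-1, and in control skin by Krt75 alone. No glycine-tyrosine-rich Krtap gene varied by more than 1.03 among tumors, whereas the median range of the inner root sheath keratins was 2.10.

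**Figure D1:**
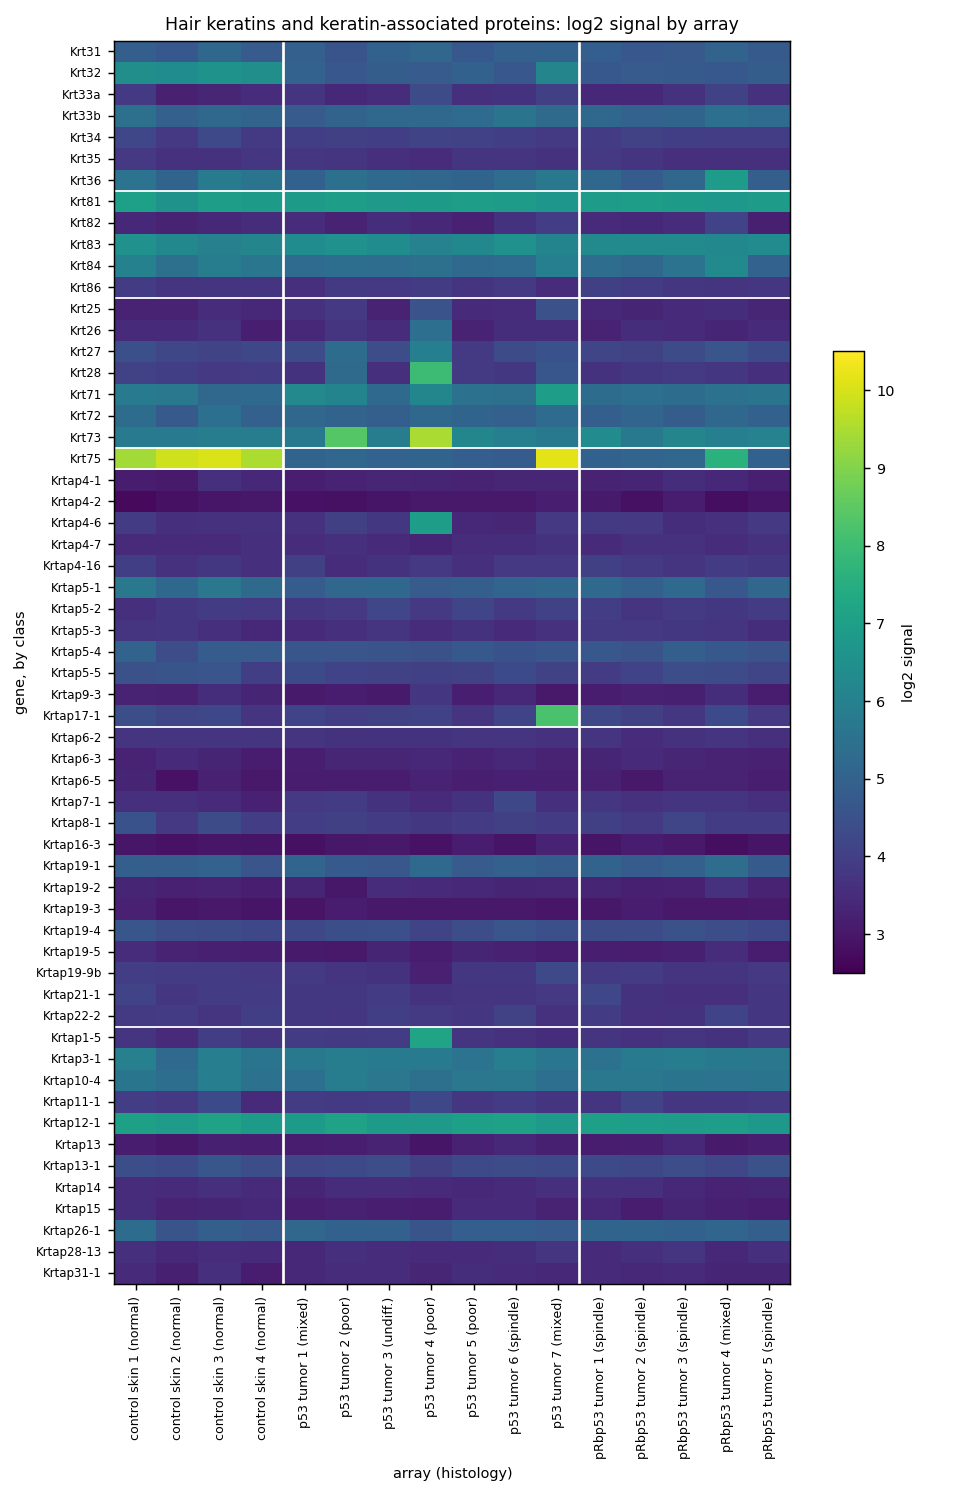
Log2 signal (colour) of the 58 genes (rows, grouped by class from type I hair keratins at the top to other Krtap genes at the bottom) on the 16 arrays (columns, with histology). Most rows keep 1 colour across all arrays, Krt75 stands out in control skin and p53 tumor 7, and Krt28, Krt73, Krtap1-5 and Krtap4-6 in p53 tumor 4.

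The comparison of tumors (n = 12) with control skin (n = 4) addresses how the carcinomas differ from normal skin. Of the 58 members 3 fell, none rose and 55 did not pass, while 6.85% of all 45037 probesets fell and 6.36% rose (limma, adjusted p under 0.05). A count of 3 in 58 is near that background. The median difference of the members was 0.02, against 0.07 for all probesets. An unadjusted p under 0.05 was found for 5 of 58 members and for a larger share of all probesets, 11874 of 45037.

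Krt75, the companion layer keratin, gave the largest change. Its log2 signal was 9.38, 9.94, 10.03 and 9.51 in control skin. In the p53 tumors it ran from 4.83 (median 5.08) to 10.16, and in the pRbp53 tumors it was 4.98, 5.11, 5.15, 7.62 and 4.99. The groups thus overlapped through a single sample: p53 tumor 7, of mixed histology, exceeded every control, and pRbp53 tumor 4, also mixed, lay between the groups, whereas the third mixed tumor, p53 tumor 1, was at 5.08. In log2 units the fall was 4.04 ± 0.78 (SE, limma adjusted p = 0.00228), and 4.69 without the mixed tumors.

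Krt32, a type I keratin of the hair cuticle, also fell. Control skin gave 6.46, 6.39, 6.58 and 6.45. The p53 tumors ran from 4.67 (median 4.85) to 6.13, and the pRbp53 tumors gave 4.70, 4.80, 4.77, 4.70 and 4.84. No tumor reached the controls, and the nearest was p53 tumor 7 at 6.13, while pRbp53 tumor 4 was among the lowest. Krt32 fell by 1.56 ± 0.20 (SE, limma adjusted p = 5.71e-05). Both keratins passed in p53 tumors alone, in pRbp53 tumors alone, without the 2 arrays of high actin ratio, and whichever array was left out.

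Krtap5-1, of a cysteine-rich family, fell by 0.42 ± 0.13 (SE, limma adjusted p = 0.0386). It measured 5.72, 5.17, 5.68 and 5.26 in control skin, 4.81 to 5.21 (median 5.12) in the p53 tumors and 5.22, 4.95, 5.23, 4.66 and 5.15 in the pRbp53 tumors, so that the groups overlapped. These values are from a probeset that may bind related transcripts. The gene's other probeset gave 4.88, 4.44, 4.52 and 4.18 in control skin and 3.87 to 4.48 in the tumors. Krtap5-1 did not pass without control skin 1 or 3, without p53 tumors 1 or 4 or pRbp53 tumor 2, after a further quantile normalization or median centring of the arrays, or as the mean of its probesets. Nor did it pass in p53 tumors alone, in pRbp53 tumors alone, without the mixed tumors, without the 2 arrays of high actin ratio, with array weights, by an unequal-variance test or at an adjusted p of 0.01. Other keratins of the shaft differed little on average: Krt31, Krt33a, Krt33b, Krt34, Krt35 and Krt36 (type I) differed by −0.16 to 0.21 and Krt81 to Krt84 and Krt86 (type II) by −0.29 to 0.13, none passing. Without the mixed tumors Krt84 passed as lower. In control skin Krt33a, Krt34, Krt35, Krt82 and Krt86 were already at 3.24 to 4.27, below the array medians, where a fall may not be seen.

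Beside these falls, many markers of other skin compartments were also lower in the tumors. Of the 14 genes listed for the bulge and for the outer root sheath, next to the companion layer, 2 fell, Krt5 by 5.48 and Krt15 by 6.26. Krt5 is also a basal keratin, and it did not pass with any single control array left out. The mean of that list was 9.35 to 9.83 in control skin and 5.35 to 11.18 in the tumors. Its highest value was in p53 tumor 7, the tumor with the highest Krt75, but the order of the other tumors differed. In pRbp53 tumor 4, with Krt75 at 7.62, the mean was 7.63. In p53 tumors 4, 2 and 1, with Krt75 at 5.09, 5.13 and 5.08, it was 9.21, 9.17 and 7.73. Of 15 interfollicular epidermis genes 14 fell, with list means of 10.95 to 11.09 in control skin and 4.26 to 7.54 in the tumors. The highest of these tumor means was also in p53 tumor 7. All 12 skeletal muscle genes and all 8 adipocyte genes fell, the adipocyte means lying at 8.54 to 10.58 in control skin and 4.92 to 7.10 in the tumors. Of 8 sebaceous gland genes 6 fell, such as Far2, which makes fatty alcohols for wax esters, by 6.86 ± 0.16 (SE, limma adjusted p = 4.11e-14). Of 10 melanocyte genes 3 fell and of 14 dermal papilla genes 2 fell and 1 rose. The part of this difference in tissue makeup in the values of Krt75, Krt32 and Krtap5-1 was not tested.

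Several members differed widely among the tumors. The range over the 12 tumors was widest for Krt75 (5.33) and Krtap17-1 (4.51), and reached 4.41 among the inner root sheath keratins. Krt28, a type I keratin of the inner root sheath, was at 4.07, 3.97, 3.82 and 3.91 in control skin, at 7.997 in p53 tumor 4, 5.26 in p53 tumor 2 and 4.66 in p53 tumor 7, and at 3.58 to 3.87 in the other 9 tumors. Krt73, a type II keratin of the inner root sheath cuticle, was at 5.80, 5.78, 5.89 and 5.87 in control skin, at 9.48 in p53 tumor 4 and 8.39 in p53 tumor 2, and at 5.72 to 6.36 in the other 10. A type I and a type II chain of the same sheath were therefore high in the same 2 tumors, both poorly differentiated. The remaining poorly differentiated tumor, p53 tumor 5, was not: Krt28 was at 3.87 and Krt73 at 6.18.

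The neighbouring genes showed part of this pattern. Krt25, Krt26, Krt27 and Krt28 lie side by side in RefSeq order, and in p53 tumor 4 all 4 exceeded control skin, at 4.54, 5.43, 5.95 and 7.997. Krt25 was nearly as high in p53 tumor 7, at 4.49, and was at 3.83 in p53 tumor 2, against 3.26 to 3.53 in control skin. In p53 tumor 2 Krt27 was at 5.31, above its control range of 4.15 to 4.44, and Krt26 at 3.71, close to its highest control of 3.64. Krt71, which pairs with type I chains in all layers of the inner root sheath, had a distribution of its own. It reached 6.98 in p53 tumor 7, 6.26 in p53 tumor 1, 6.18 in p53 tumor 4 and 6.11 in p53 tumor 2, against 5.21 to 5.77 in control skin and 5.24 to 5.57 in the other 8 tumors. Krt72 stayed at 4.76 to 5.41 on every array.

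Single Krtap and shaft keratin genes stood high in 1 tumor each. Krtap1-5 was at 7.16 in p53 tumor 4 and at 3.46 to 3.96 on all other arrays. Krtap4-6 was at 6.98 in the same tumor and at 3.35 to 4.02 elsewhere. The Krtap families 1 and 4 supply matrix proteins of the hair cortex, and their other members on the array, Krtap4-1, Krtap4-2, Krtap4-7 and Krtap4-16, were at 3.32, 3.05, 3.34 and 3.82 in that tumor, where their control skin values ran from 2.71 to 3.99.

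In p53 tumor 7, the array with the highest actin ratio, the high member was Krtap17-1, at 8.20 against 3.69 to 4.42 elsewhere. Its RefSeq neighbour Krt33a did not stand out there and ran from 3.24 to 4.37 over all arrays. In pRbp53 tumor 4 it was Krt36, a type I hair keratin, at 6.88 against 4.83 to 5.75 elsewhere, and Krt84, a type II keratin also known from the tongue, was at its highest there, at 6.33, with control skin at 5.44 to 6.02.

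**Figure D2:**
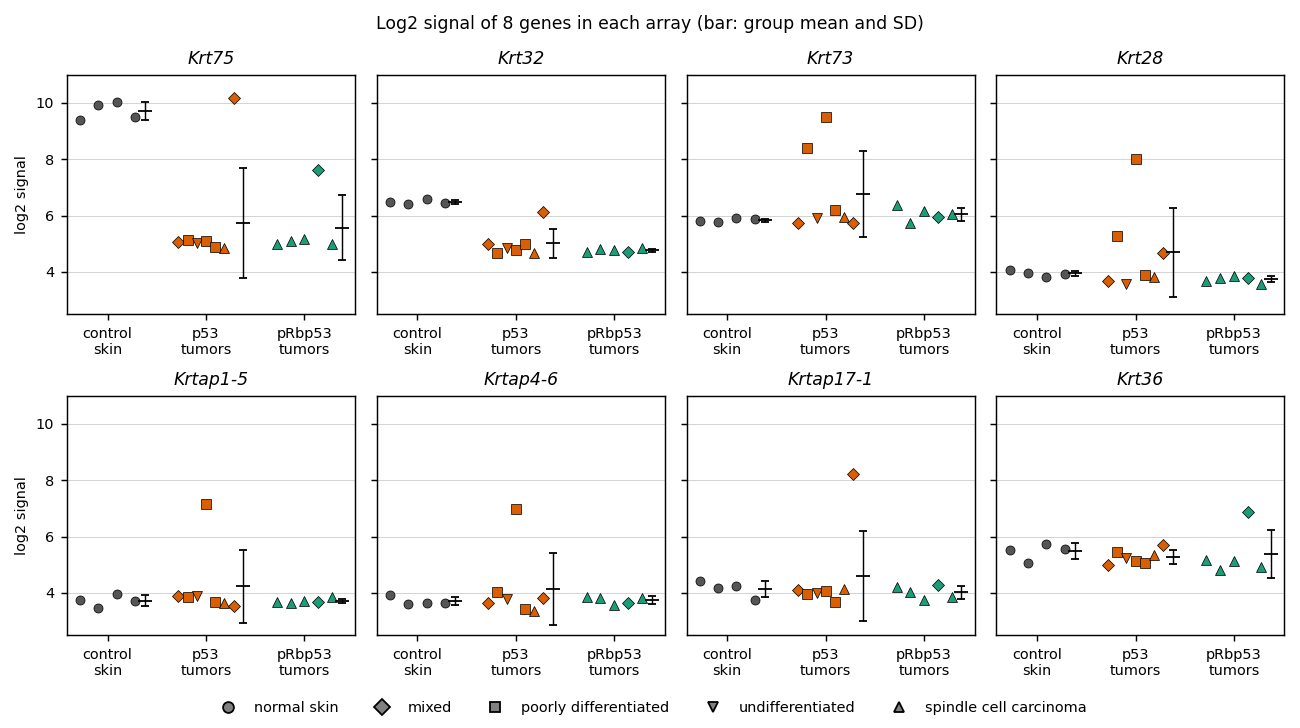
Log2 signal of 8 genes in each sample, by group (colour) and histology (symbol), with the group mean and SD as a bar. Krt32 is lower in every tumor than in control skin and Krt75 in every tumor but p53 tumor 7, whereas Krt73 and Krt28 are high in 2 poorly differentiated p53 tumors and the lower row shows genes high in 1 tumor each.

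Counted over the family, 10 members exceeded the highest control skin array by more than 1 in at least 1 tumor: Krt25, Krt26, Krt27, Krt28, Krt36, Krt71, Krt73, Krtap1-5, Krtap4-6 and Krtap17-1. Of these 7 did so in p53 tumor 4, 2 in p53 tumor 2, 2 in p53 tumor 7 and 1 in pRbp53 tumor 4. In p53 tumor 4 this was 12.07% of the members against 6.76% of all probesets. In p53 tumors 2 and 7 it was 3.45% against 4.83% and 5.65%, and in pRbp53 tumor 4 it was 1.72% against 5.66%. No member passed that margin in the remaining tumors, where the share of all probesets was 4.6%, 6.79%, 5.88% and 6.59% in p53 tumors 1, 3, 5 and 6, and 5.3%, 5.84%, 5.17% and 5.59% in pRbp53 tumors 1, 2, 3 and 5. In the other direction Krt32 and Krt75 were more than 1 below the lowest control in 11 of 12 tumors, all but p53 tumor 7. In each of these 11 they were 3.45% of the members, against 5.46% to 6.95% of all probesets. At this margin the share above control skin was higher than that of all probesets in p53 tumor 4 and lower in the other 11 tumors, and the order depended on the margin. At 0.5 it was 13.79% against 13.9% in p53 tumor 4. At 2 it was 6.9% against 1.81% there, and 1.72% in p53 tumors 2 and 7 against 1.23% and 1.41%, which is 1 gene in each.

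**Figure D3:**
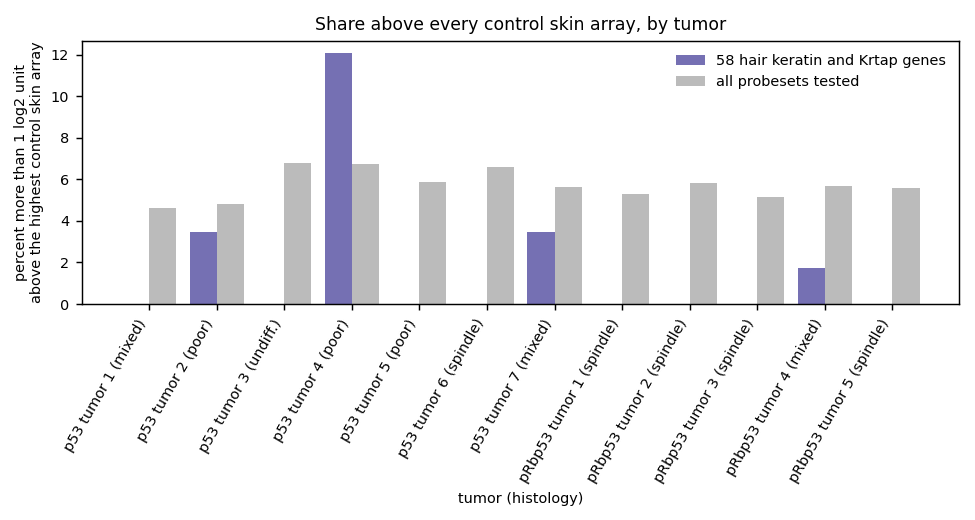
Percent of the 58 genes (purple bars) and of all tested probesets (grey bars) whose log2 signal in a tumor was more than 1 above the highest of the 4 control skin arrays, for each of 12 tumors with its histology. The purple bar exceeds the grey one in p53 tumor 4 (12.07% against 6.76%), and 8 tumors have no purple bar.

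The comparison of pRbp53 with p53 tumors (n = 5 and 7) addresses the added loss of pRb. Genotype was mixed with histology here, since all 3 poorly differentiated tumors were p53 tumors and 4 of the 5 pRbp53 tumors were spindle cell carcinomas. None of the 58 members passed at the adjusted p of 0.1 used for this comparison (limma), and an unequal-variance test called none. None had an unadjusted p under 0.05 either, against 4184 of all 45037 probesets. Of all probesets 0.127% were higher and 0.0711% lower. The class with the lowest median was that of the inner root sheath keratins, at −0.40 against −0.01 for all probesets. Krt28 differed by −0.96 ± 0.67 and Krt73 by −0.72 ± 0.65 (SE, limma adjusted p = 0.712 and 0.779), the high values being those of p53 tumors 2 and 4. With histology as a covariate Krt28 differed by −0.22, and Krt73 turned to 0.16. Krt71 was at 5.34, 5.43, 5.34, 5.51 and 5.57 in the pRbp53 tumors and at 5.24 to 6.98 (median 6.11) in the p53 tumors, a difference of −0.52 ± 0.26 (SE, limma adjusted p = 0.573). No pRbp53 tumor reached the median of the p53 tumors, but the ranges overlapped. Krtap17-1 and Krt36 differed by −0.57 and 0.10 through the 1 tumor in which each was high.

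Undifferentiated or spindle tumors (n = 6) were compared with poorly differentiated tumors (n = 3), the mixed ones being left out. Grade was mixed with genotype: all 3 poorly differentiated tumors were p53 tumors, and 4 of the 6 others were pRbp53 tumors. No member passed with genotype as a covariate or in p53 tumors only. None of the 58 members passed (limma, adjusted p under 0.05) and an unequal-variance test called none, while 3.99% of all probesets were lower and 3.4% higher. An unadjusted p under 0.05 was found for 4 of 58 members and for a larger share of all probesets, 9843 of 45037. These 4 members were all inner root sheath keratins. All 7 of that class had a negative difference, with a median of −0.67 against 0.01 over all probesets.

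Krt73 was at 8.39, 9.48 and 6.18 in the poorly differentiated tumors and at 5.73 to 6.36 (median 5.998) in the undifferentiated or spindle tumors, a difference of −1.99 ± 0.58 (SE, limma adjusted p = 0.0782). Krt28 was at 5.26, 7.997 and 3.87 against 3.58 to 3.86, a difference of −1.999 ± 0.713 (SE, limma adjusted p = 0.138). Krt71 was at 6.11, 6.18 and 5.49 against 5.24 to 5.57, a difference of −0.53 ± 0.16 (SE, limma adjusted p = 0.083). For Krt28 the groups did not overlap, though p53 tumor 5 lay just above the highest of the others, and for Krt73 and Krt71 p53 tumor 5 lay within the range of the others.

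The weight of 1 tumor in this comparison was large. Without p53 tumor 5, which leaves 2 poorly differentiated tumors, Krt25, Krt27, Krt28, Krt71 and Krt73 all passed as lower. In p53 tumor 5 the basal keratins Krt5 and Krt14, the latter chosen after its values were seen, were at 4.76 and 4.41, against 11.73 and 12.93 in p53 tumor 2 and 10.77 and 12.81 in p53 tumor 4. Csn2 was high in all 3 poorly differentiated tumors, as given above, but also in p53 tumor 3, the undifferentiated tumor, at 10.80. The part of basal keratinocytes or of milk gland tissue in these differences was not tested. The shaft classes showed little: the median differences were −0.04 for type I and 0.03 for type II hair keratins, and Krtap1-5 and Krtap4-6 differed by −1.17 and −1.11 through p53 tumor 4.

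**Figure D4:**
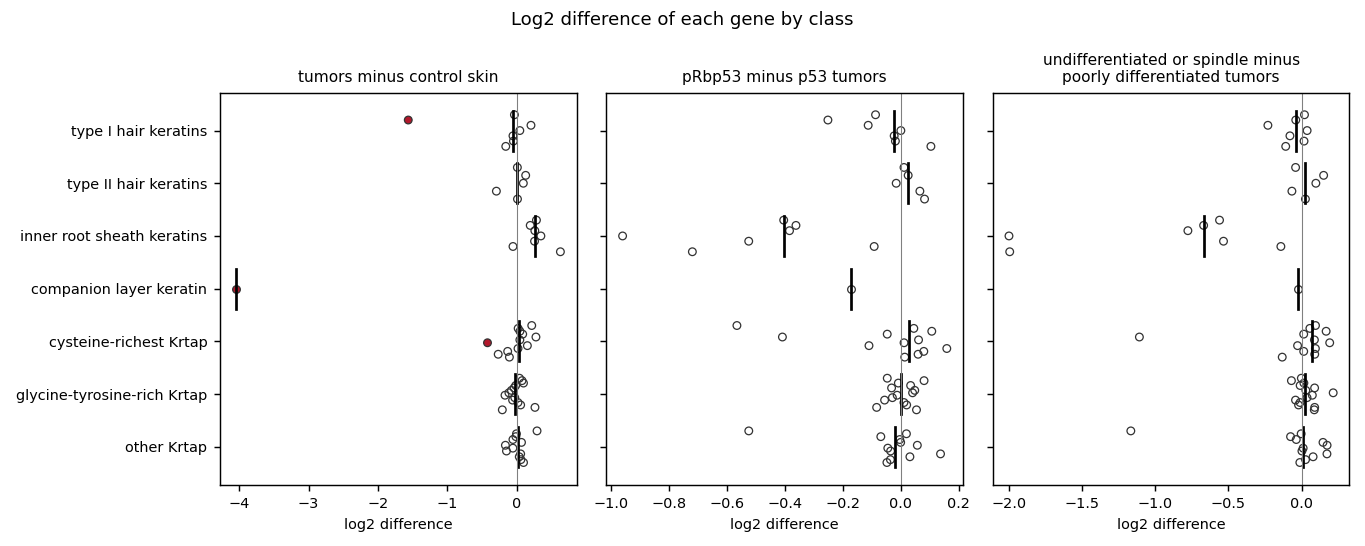
Log2 difference of each of the 58 genes (points) by class (rows) in 3 comparisons (panels, each with its own scale), with the class median as a vertical bar and filled points for genes that passed. The 3 filled points, Krt75, Krt32 and Krtap5-1, are in the first panel, and in the other panels the inner root sheath keratins lie to the left of 0 with medians of −0.40 and −0.67.

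Transcription factors and signals that act in the follicle were described as a list of 12 regulators. In tumors against control skin 4 fell, none rose and 8 did not pass. Foxn1, the nude gene, which controls keratinocyte differentiation in the shaft, was at 5.17, 5.31, 5.24 and 5.24 in control skin and at 4.03 to 4.69 (median 4.27) in the 12 tumors. No tumor overlapped control skin, and the fall was 0.94 ± 0.10 (SE, limma adjusted p = 5.85e-06). Gata3, required for the inner root sheath, fell by 4.32 ± 1.16, Hr, the hairless corepressor, by 3.06 ± 0.80 and Ovol1, a zinc finger factor of epidermis and hair, by 3.05 ± 0.58 (SE, limma adjusted p = 0.0207, 0.0183 and 0.0022). Leaving out any single control array ended the call for Gata3, and leaving out control skin 1 or 3 ended it for Hr. Gata3 was at 4.84 and 8.03 in p53 tumors 4 and 2, in which Krt28 and Krt73 were high, and at 10.08 and 10.34 in p53 tumors 5 and 7.

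The other 8 regulators varied from tumor to tumor. Hoxc13, a homeobox activator of hair keratin and Krtap genes, was at 10.41 in p53 tumor 7, the array with the highest actin ratio (1.67). It was at 5.95 to 6.65 in control skin and 4.69 to 5.77 in the other tumors. Shh, the hedgehog ligand of the hair matrix, was at 6.86 and 7.14 in p53 tumors 2 and 4, against 5.06 to 5.31 in control skin and 5.07 to 5.85 in the other tumors. Dlx3, a homeobox factor of shaft and inner root sheath, was at 7.25 and 7.54 in these 2 and at 8.26 in pRbp53 tumor 4, against 5.82 to 6.62 in control skin. Lef1, the nuclear partner of beta-catenin in the hair matrix, was highest in p53 tumor 4, at 6.26, against 4.97 to 5.85 elsewhere. Vdr reached 11.95 in p53 tumor 7, against 8.83 to 9.48 in control skin, and Msx2 5.69, against 4.60 to 5.14. Dlx4 was highest in pRbp53 tumor 4 and p53 tumor 4, at 5.89 and 5.83, against 4.23 to 4.53 in control skin. Msx1 was highest in pRbp53 tumor 3, at 7.03, where no member exceeded control skin by more than 1. These are values of single tumors and were not tested.

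Proteins that act on or beside the shaft and sheath formed a list of 16 measured genes. In tumors against control skin 5 fell, 1 rose and 10 did not pass. Lipm and Lipk, lipases also known from the granular layer of the epidermis, fell by 5.14 ± 0.42 and 3.01 ± 0.14, and the transglutaminase Tgm1, likewise of the cornified layer, by 2.14 ± 0.52 (SE, limma adjusted p = 2.62e-07, 2.56e-10 and 0.0118). The protease gene Prss53 and Tgm3, the transglutaminase that crosslinks trichohyalin, fell by 1.13 and 0.46, and the aminopeptidase Lap3 rose by 0.98. Padi3, which deiminates arginines of trichohyalin and S100a3 in hair, was at 3.77 to 4.15 in control skin and at 9.84 in p53 tumor 4, 8.12 in p53 tumor 7, 6.80 in p53 tumor 2, 6.61 in p53 tumor 1 and 6.13 in pRbp53 tumor 4. Its levels in the other 7 tumors were 3.60 to 4.13. S100a3, a cysteine-rich calcium-binding protein of the hair cuticle, was at 6.92 and 6.29 in p53 tumors 4 and 2. It was at 5.06 in p53 tumor 7 and at 3.61 to 4.65 in the remaining tumors, against 3.94 to 4.32 in control skin. Tchh, trichohyalin, the matrix protein of the inner root sheath, was at 5.51 in p53 tumor 4 and at 2.45 to 4.35 elsewhere. Crym was also highest in p53 tumor 4, at 5.11, but Dsc2 in p53 tumor 2, at 9.94, and Sprr1b in p53 tumor 7, at 8.35. Padi1 was highest in pRbp53 tumor 4, at 5.88. Lgals3 was at 11.64 in p53 tumor 4, below its 13.19 to 13.41 in control skin. Tchhl1 and Gprc5d stayed at 2.92 to 3.52 and 4.97 to 5.68 on every array. These single-tumor values were not tested.

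**Figure D5:**
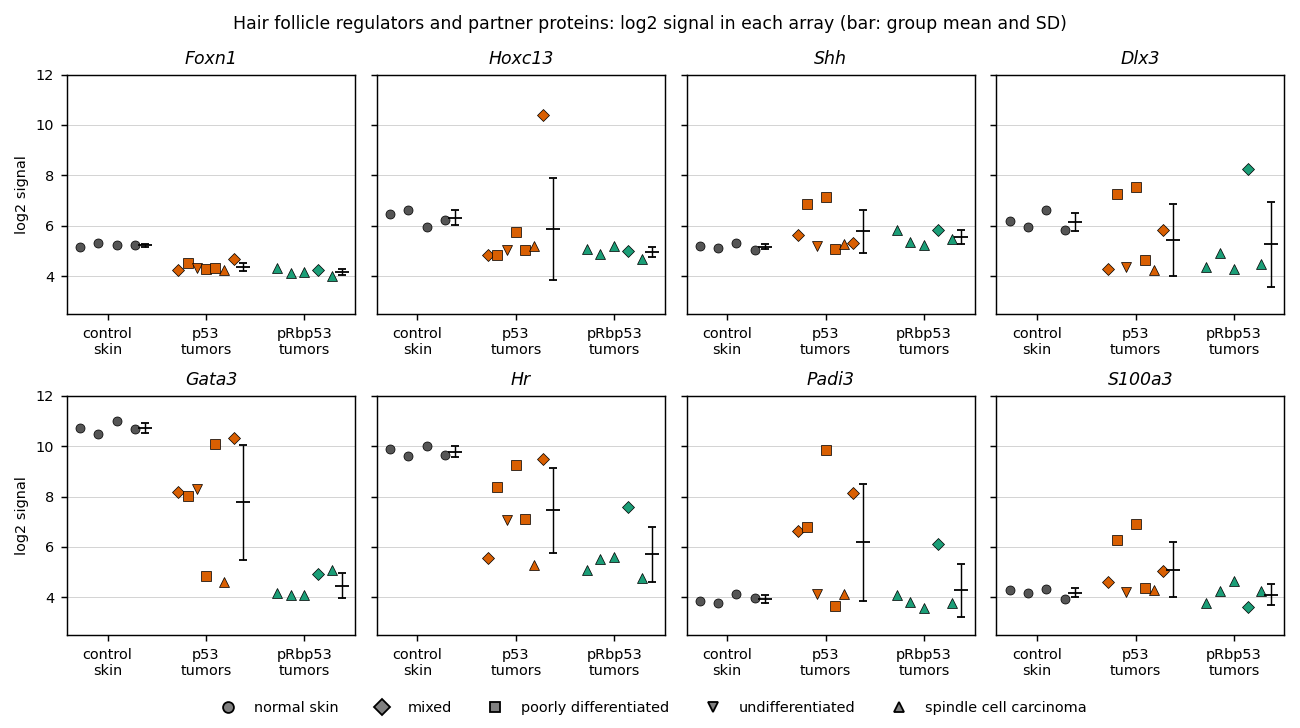
Log2 signal of 6 follicle regulators and of the hair proteins Padi3 and S100a3 in each sample, by group (colour) and histology (symbol), with the group mean and SD as a bar. Foxn1 separates control skin from every tumor, Hoxc13 is high in p53 tumor 7, and Shh, Padi3 and S100a3 are highest in p53 tumor 4.

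By grade, again mixed with genotype, 3 of the 12 regulators were lower in undifferentiated or spindle tumors. They were Hr at −2.69 ± 0.57, Ovol1 at −2.47 ± 0.38 and Vdr at −2.36 ± 0.52 (SE, limma adjusted p = 0.0235, 0.00621 and 0.0275). Vdr is the vitamin D receptor, which hair cycling requires. Of the 16 partner proteins 3 were lower, the desmosomal cadherin Dsc2 at −5.20 ± 0.49 (SE, limma adjusted p = 5.73e-04), Crym and Lipm. Hr did not pass without p53 tumor 2 or 4, and Vdr, Crym and Lipm without several tumors in turn. Other lists moved in the same comparison: Epcam and Cdh1, of epithelial cell contacts, were lower, at −6.96 ± 0.48 and −6.09 ± 0.50 (SE, limma adjusted p = 1.04e-04 and 2.58e-04). Of the 11 genes of simple epithelium and mesenchyme, which include both, Vim, Zeb1, Zeb2 and Snai1, of mesenchymal cells, were higher, at 2.005, 3.27, 2.69 and 3.02. Of the 14 outer root sheath and bulge genes Cd34 and Nfatc1 were higher and none passed as lower, but the list's median difference was −2.58, and 11 of its genes had an unadjusted p under 0.05. Krt14, Krt17, Krt6b, Krt15 and Krt5, named after their values were seen, had differences of −4.91, −4.18, −3.87, −3.75 and −3.74 (limma adjusted p = 0.133, 0.0612, 0.0912, 0.131 and 0.123). Of 8 macrophage genes 6 were higher. By genotype no gene of any of the 11 lists passed (limma, adjusted p under 0.1).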

How the data were processed

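RNA of 16 samples was measured on Affymetrix MOE430 2.0 arrays. The deposited values are log2 signal intensities that the authors made with RMA, whose version is not given in the sources used here. Samples were grouped by their titles and by the histology in the labels. Of 45101 probesets, 64 array controls were left out. Gene symbols came from the platform annotation, in which 34945 of the 45037 tested probesets had 1 symbol, 932 several and 9160 none. A further 6 probesets that share a Krtap symbol with other genes were left out, and their values lay between 2.85 and 4.95. Of the members, 5 had several probesets and 3 were read from a probeset that may bind related transcripts (suffix _s_at or _x_at). Krtap genes lie in families of near copies, so signals of single members are uncertain where probes could bind several. All 58 gene IDs were in the RefSeq table and no symbol differed.

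Linear models were fitted with limma 3.58.1 in R 4.3.3 over all 45037 probesets, with Benjamini-Hochberg adjustment and two-sided tests, at an adjusted p of 0.05, or 0.1 for genotype. Errors are standard errors (SE) of differences. The code was tested on artificial data with known changes. Comparisons with control skin share its 4 arrays, and the tumor comparisons share tumors. The number of arrays limits the precision. Control skin 2 and 4 correlated at 0.9957, above the other control pairs, and were kept as 2 samples, with their mean as an alternative.

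Members and gene lists were chosen with earlier results of these data known. Named genes are all keratins, the Krtap genes with the highest mean or widest control range, those that passed or differed most, and list genes that passed. Krtap genes were classed by family number: 4, 5, 9 and 17 as cysteine-richest, 6, 7, 8, 16, 19, 20, 21 and 22 as glycine-tyrosine-rich. A planned grouping by protein composition was not used here, since it needs protein sequences. Replicate numbers were not treated as pairing: among 13 same-numbered pairs across groups, deviations from the group mean correlated above 0.1 in 3. The alternatives were a replicate block, brighter probesets, other normalizations, another prior, array weights, a Welch test (the study names a t-test), other probeset rules, thresholds, covariates, subsets of tumors and leaving out each array. The mean of control skin 2 and 4, leaving out the mixed tumors, leaving out p53 tumors 2 and 4, and other margins over control skin were chosen after seeing the data. Figures were drawn with matplotlib 3.10.9.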

Additional observations from a re-analysis of the deposited data

Results flagged for a closer look

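In 14 of 117 combinations of a named member and a group (11.97%), 1 sample lay apart from the others of its group. The rule flags about 1 in 20 by chance. Some members were named for differences that such single samples make, so these 2 shares cannot be compared. In p53 tumor 7 these were Krt75 at 10.16 (next highest p53 tumor 5.13), Krtap17-1 at 8.20 (next 4.14), Krt32 at 6.13 (next 5.004) and Krt84 at 5.94 (next 5.46). In p53 tumor 4 they were Krt28 at 7.997 (next 5.26), Krtap1-5 at 7.16 (next 3.89), Krtap4-6 at 6.98 (next 4.02), Krt26 at 5.43 (next 3.71) and Krtap11-1 at 4.23 (next 3.92). In pRbp53 tumor 4 they were Krt75 at 7.62 (next 5.15) and Krt36 at 6.88 (next 5.18). The remaining 3 were small in size: Krtap11-1 in pRbp53 tumor 2 at 4.13 (next 3.83), Krt86 in control skin 1 at 3.94 (next 3.73) and Krtap4-6 in control skin 1 at 3.92 (next 3.64).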

How the results depend on the processing

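Krt75 and Krt32 kept their direction and stayed past the threshold under every alternative in which they were tested, Krt75 between −4.69 and −3.94 and Krt32 between −1.71 and −1.46. The replicate block left 3 members lower in tumors, with Krt75 at −4.32, and did not change the genotype count of 0. By grade it left no probeset called, against 3326 without it, and Krtap4-6 turned to 0.10. There the block leaves the difference to the same-numbered tumors 2 and 5 of the 2 genotypes, and little to estimate variation from. It drops p53 tumor 4, which is alone with its number in that comparison. By genotype the block turned Krtap17-1 to 0.0650, where it likewise drops p53 tumor 7, alone with its number. Members lower in tumors numbered 1 among the 5 tested with brighter probesets, and 2 to 4 with an array left out. With array weights 2 rose, Krtap7-1 and Krtap31-1, a Welch test called Krtap6-2 lower in place of Krtap5-1, and without the mixed tumors Krt84 was lower in its place. By grade, members lower numbered 1 with brighter probesets, 2 with array weights or at an adjusted p of 0.1, and 0 to 5 with a tumor left out. Against control skin, pRbp53 tumors alone turned Krtap1-5 to −0.0127 and Krt28 to −0.21. By genotype, Krtap17-1 ran from −0.72 to 0.0363 with a tumor left out, turning without p53 tumor 7, and Krt36 from −0.27 to 0.24, turning without pRbp53 tumor 4. Krt36 was −0.11 with array weights and Krt73 0.16 with histology as a covariate. Leaving out p53 tumors 2 and 4, chosen for their high values, leaves p53 tumor 5 as the lone poorly differentiated tumor, assumed to vary like the others, and is no test of stability; by grade Krtap1-5 was 0.0393, Krtap4-6 0.28 and Krtap19-9b −0.0110 there. Apart from the tumors that the replicate block drops, the cause of these changes was not tested. Over all probesets, 5949 differed between tumors and control skin, against 14405 with array weights, 8987 by a Welch test and 3057 at an adjusted p of 0.01, and 3744 without control skin 1. By genotype 89 did, against 35 with the replicate block, 25 by a Welch test, 288 with array weights, 468 in a fit of all 3 groups, 13 with histology, 57 and 19 at an adjusted p of 0.05 and 0.01, and 47 to 216 with a tumor left out. By grade 3326 did, against 825 by a Welch test, 1167 and 5436 at 0.01 and 0.1, 2024 with genotype, 827 in p53 tumors only, and 2039 to 3473 with a tumor left out. Centring the arrays on their medians moved the median difference of all probesets between tumors and control skin from 0.07 to 0.12, and the higher and lower calls from 2863 and 3086 to 3624 and 2854. Most members gave signals below the array medians, where a small change in RNA may not be seen.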
